A study of Daphnia magna with 335 samples.

Results

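The 43 probes described here, of 2378 in the table, differed between separate rounds of exposure while showing little response to the strongest chemicals of the series. They were selected on measured values. The raw counts were scaled to CPM (counts relative to the total of their library), each probe's mean over the 36 solvent pools had to lie between 10 and 3000 CPM, and 3 log2 ratios against solvent had to lie within 0.5 of 0. These ratios, of log2(mean CPM + 2), were those of the highest level of 2-tert-Butyl-4-methoxyphenol, of the highest level of Fipronil amide, and of levels D2 to D4 of cis-Nonachlordane. Finally, the solvent level in the highest of 6 exposures had to exceed that in the lowest by at least 1 on the log2 scale. Of 1353 probes in the CPM window, 477 met the limits on response, and 43 of these (9.01%) had the required range. Among the 876 window probes that did not meet the limits on response, 354 (40.4%) had it.

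The series measured transcripts in whole Daphnia magna, a freshwater water flea, with TempO-Seq, after 24 h with 1 of 12 chemicals at 8 levels coded D1 (highest) to D8 (lowest). Each library held a pool of 5 animals, with 3 pools per level, lettered A, B and C, except for D1 of 3,4-Dichlorophenyl isocyanate, which had 2. Every exposure tested 2 chemicals, and its DMSO pools were 3 labelled CON and 3 labelled XtraC, a difference that the labels do not explain. Control QA libraries, 12 in all with 3 for each of the codes DM001 to DM004, were also labelled as DMSO, and a file header calls the codes plates.

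The exposure named C1C2 held Metolachlor OA and 3,4-Dichlorophenyl isocyanate, and C3C4 held 1(2H)-Phthalazinone and Gabapentin. Metribuzin-DA and 2-tert-Butyl-4-methoxyphenol shared C5C6, and Hydrochlorothiazide and 4-Chlorophenyl methyl sulfoxide shared C7C8. Cetirizine and Fipronil amide shared C9C10, and Fexofenadine and cis-Nonachlordane shared C11C12. All chemical wells held DMSO as well, matched in amount to the controls, so DMSO is common to every group. The labels give neither the age of the animals nor whether pools came from separate cultures. The p-values below therefore measure the spread between pools inside an exposure, and an exposure cannot be told apart from anything else that was done once per exposure.

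Libraries held between 118094 and 1171681 counts (median 619413), and the median totals of the treated pools at D5 to D8 ran from 547595 in C11C12 to 665481 in C1C2. The 43 probes held 0.546% to 2.03% of the counts of a DMSO pool. In replicate C of 3,4-Dichlorophenyl isocyanate at level D2, 10 probes held 90.8% of all counts, and this library entered the comparisons of that chemical and the median differences at D2 given below, not those of the pools at D5 to D8.

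TempO-Seq counts pairs of short detector oligonucleotides that are ligated on a matching transcript, so that each probe reads a single site of a transcript. Daphnia moult and brood in repeated cycles, and RNA of the whole body mixes all tissues with any carried brood. Solvent controls run within each experiment are the usual reference for the effect of a chemical. Whole-body pools do not separate fewer cells of a type from less RNA per cell. The probe identifiers, which begin with Dapma7bEVm, matched 0 entries of the gene table used here, so no gene name or function is given, and no probe sequence is shown.

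The solvent levels of the set, which chose it, had a median range over exposures of 1.22 on the log2 scale, from 1.00 to 3.14. The mean level over the 36 DMSO pools ran from 12.7 to 2484 CPM with a median of 91.5 CPM. The highest exposure was C7C8 for 15 probes, C11C12 for 10, C1C2 and C5C6 for 7 each and C3C4 for 4, and C9C10 was highest for 0. The lowest exposure was C1C2 for 21 probes, C9C10 for 10, C3C4 for 9, C11C12 for 2 and C5C6 for 1, and C7C8 was lowest for 0. The most frequent pairs were C11C12 above C1C2 (9 probes) and C7C8 above C9C10 (7 probes). Just inside the range limit were Dapma7bEVm018647_97710 (1.00) and Dapma7bEVm000522_97945 (1.01), and just outside were Dapma7bEVm007384_97595 (0.986) and Dapma7bEVm011275_97161 (0.983).

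Treated pools at the 4 lowest levels, D5 to D8, played no part in the choice of probes, and there were 24 of them per exposure. In these pools every one of the 43 probes was higher in the exposure where its DMSO pools were highest than in the one where they were lowest. The same direction was found for 96.4% of all probes tested and 93.5% of the unresponsive probes with a smaller range. The difference passed edgeR's quasi-likelihood test (Benjamini-Hochberg adjusted p under 0.05 over 1405 probes) for 40 of 43 probes. The same comparison, between each probe's own highest and lowest DMSO exposure, passed for 84.4% of all probes tested and for 311 of 431 unresponsive probes with a smaller solvent range. A difference between exposures was thus common in the whole table. What set the 43 probes apart was size, which the rule had chosen in DMSO: 24 both passed and differed at least 2-fold in treated pools, against 25.6% of all probes tested and 9 of the 431.

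The median difference in treated pools was 1.04 (log2), from 0.18 to 2.62, which was 78.0% of the DMSO range at the median. The corresponding share was 65.5% for the unresponsive probes with a smaller range and 83.3% for all probes in the window. The treated difference reached or exceeded the DMSO range for 10 of 43 probes and was less than 0.5 of it for 5. Across single levels the median difference was 0.86 at D1, 1.26 at D2, 0.92 at D3 and 1.04 at D4. Without the D2 library of C1C2 in which 10 probes held most counts, the value at D2 was 0.97, and it went from 0.46 to 0.24 for the unresponsive probes with a smaller range. The lower levels gave 1.08, 1.09, 1.01 and 1.05, from D5 to D8. At D6 all 43 probes differed in the direction of the DMSO pools, and at D4 and D7 40 did. Levels D1 to D4 include the pools that the rule used.

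The order of all 6 exposures was also alike in both kinds of pool. Pearson's r over the 6 exposure means, between DMSO and treated pools, had a median of 0.93 over the probes, and 37 of 43 had an r of at least 0.8; the median was 0.90 among all probes in the window and 0.80 among the unresponsive probes with a smaller range. With 6 points that share libraries between probes, this is a description only. The highest exposure was the same in both kinds of pool for 36 of 43 probes (83.7%) and the lowest for 35 (81.4%), against 62.9% and 65.9% of the window probes. Each exposure holds 2 chemicals, and for all 43 probes both chemicals of the DMSO-highest exposure were above both of the DMSO-lowest one, as they were for 91.9% of the window probes and 85.7% of the unresponsive probes with a smaller range. In the treated pools the exposure accounted for 37.5% of the variance of log2(CPM + 2) at the median, the chemical within an exposure for 2.95%, and the letter within an exposure for 6.62%. The exposure held 33.4% for all window probes and 22.5% for the unresponsive probes with a smaller range. By their numbers of terms alone exposure, chemical and letter would hold 3.50%, 4.20% and 8.39%.

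The exposures did not carry over equally. Averaged over the 43 probes and centred per probe, C7C8 stood at 0.42 in DMSO and 0.40 in treated pools, and C9C10 at -0.37 and -0.30. C5C6 stood at 0.24 in DMSO pools and at 0.02 in treated pools. Probes highest in C1C2 kept 106% of their DMSO range at the median, those highest in C7C8 84.9%, those highest in C11C12 73.5%, those highest in C5C6 63.6% and those highest in C3C4 62.6%. No test was made of these differences between exposures.

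The widest range belonged to Dapma7bEVm006987_97622. Its DMSO pools held 198 to 870 CPM in C7C8 (median 350) and 26.9 to 68.9 CPM in C9C10 (median 50.6), with no overlap. Its 24 treated pools held 61.1 to 981 CPM in C7C8 (median 246) and 21.7 to 277 CPM in C9C10 (median 43.6). These overlapped, and the treated fold was 2.39 ± 0.33 (log2, SE; adjusted p = 7.86e-11). Within C7C8 the 3 CON pools (439, 870 and 624 CPM) were all above the 3 XtraC pools (261, 237 and 198 CPM), so its DMSO mean in that exposure joined unlike pools.

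A group of 5 probes shared a pattern of pools rather than of exposures alone. Dapma7bEVm028854_97868 held 3636 to 6716 CPM in the 6 DMSO pools of C7C8. In C3C4 its DMSO pools fell into a high set of 987, 1356 and 1341 CPM and a low set of 28.8, 28.6 and 26.3 CPM. Both letter B pools of C3C4 were low and both letter A pools high, while the letter C pools differed, with CON low and XtraC high. The treated pools of C3C4 ran from 12.9 to 5613 CPM with a median of 42.1 CPM, and those of C7C8 from 1063 to 11589 CPM with a median of 4665 CPM. The treated fold was 2.62 ± 0.54 (log2, SE; adjusted p = 4.67e-06), and the ranges overlapped through the high pools of C3C4.

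Dapma7bEVm002063_97559 had the same split, with C3C4 DMSO pools at 862, 586 and 775 CPM or at 28.8, 62.2 and 8.0 CPM, and C7C8 pools at 1158 to 2246 CPM. Its treated pools had medians of 102 CPM in C3C4 and 1682 CPM in C7C8, a fold of 2.40 ± 0.46 (log2, SE; adjusted p = 1.11e-06). Dapma7bEVm002249_96128, highest in C1C2, held 51.4 to 186 CPM in the DMSO pools there. In C3C4 its DMSO pools were at 65.9 and 89.4 CPM or between 0 and 1.31 CPM, and the treated fold was 2.48 ± 0.39 (log2, SE; adjusted p = 3.51e-09). The split was not identical, since its XtraC letter A pool stood at 0 CPM. That pool was high for Dapma7bEVm028854_97868 and Dapma7bEVm002063_97559. Dapma7bEVm001185_96644 (1.82 ± 0.33) and Dapma7bEVm028499_97764 (1.99 ± 0.33) completed the group.

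To describe this split, chosen after its values were seen, a pool was called low where a probe stood under 10% of its own mean over the 36 DMSO pools. In the 144 treated pools of D5 to D8, Dapma7bEVm028854_97868 was low in 34, Dapma7bEVm002063_97559 in 31, Dapma7bEVm002249_96128 in 28, Dapma7bEVm028499_97764 in 23 and Dapma7bEVm001185_96644 in 13. Dapma7bEVm028499_97764, with a DMSO mean of 16.2 CPM, had a median count of 6 per library and 45 libraries at 0. Its low pools therefore lie near the floor of counting. The low pools were largely the same pools: all 31 low pools of Dapma7bEVm002063_97559 and all 13 of Dapma7bEVm001185_96644 were low for Dapma7bEVm028854_97868 too. Of the other 38 probes, 29 were low in 0 treated pools and 9 in 1 to 9.

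At least 4 of the 5 probes were low together in 23 treated pools, and 0 of the 5 in 107. The 23 pools comprised 11 of C3C4, 6 of C9C10, 4 of C11C12 and 2 of C5C6, with 0 in C1C2 and C7C8. Within C3C4 they were 5 of 12 pools of 1(2H)-Phthalazinone and 6 of 12 of Gabapentin. The split was less even elsewhere. In C9C10 they were 5 of 12 pools of Fipronil amide and 1 of 12 of Cetirizine. In C11C12 they were 3 of 12 of Fexofenadine and 1 of 12 of cis-Nonachlordane. In C5C6 they were 2 of 12 of Metribuzin-DA and 0 of 12 of 2-tert-Butyl-4-methoxyphenol. No difference between chemicals was tested here. By letter the 23 pools were 8, 7 and 8 for A, B and C, and by level 7, 8, 5 and 3 from D5 to D8. Their total counts (424986 to 1043347, median 657571) lay inside those of the 107 pools (204055 to 1171681, median 620097). The DMSO pools held the same state, with 7 of 36 low for Dapma7bEVm028854_97868, whereas 0 of 12 control QA libraries were, at 487 to 803 CPM. Of the other 4 probes, Dapma7bEVm028499_97764 alone had low QA libraries, 2 of 12.

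The pattern was not particular to these probes. Of 1352 other probes in the window, 13 had an r of at least 0.8 with Dapma7bEVm028854_97868 over the 144 treated pools after each exposure was centred, and 1 of the 13, Dapma7bEVm002063_97559 (r = 0.95), belonged to the set. The nearest of the others was Dapma7bEVm027251_97353 (r = 0.94, mean 55.7 CPM in DMSO pools). These correlations share libraries and depth and are a description.

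Dapma7bEVm000027_96638 was among the 29 probes with 0 low treated pools. It held 53.6 to 86.8 CPM in the DMSO pools of C1C2 (median 59.9) and 221 to 323 CPM in those of C11C12 (median 252). Its treated pools ran from 23.2 to 164 CPM in C1C2 (median 74.2) and from 183 to 312 CPM in C11C12 (median 235), so the 24 pools of each did not overlap. The treated fold was 1.55 ± 0.11 (log2, SE; adjusted p = 1.38e-28). Its 4 control QA plate means differed by 0.09 on the log2 scale, the whole QA range being 75.7 to 137 CPM.

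Treated pools of the 2 exposures also did not overlap for Dapma7bEVm002980_96780 (85.2 to 168 CPM in C1C2, 188 to 350 CPM in C11C12), Dapma7bEVm004109_97182 and Dapma7bEVm000522_97945 (333 to 710 CPM in C1C2, 754 to 1298 CPM in C11C12). These 4 of 43 probes (9.30%) compare with 11.6% of the probes in the window and 2.30% of the unresponsive probes with a smaller range. In the DMSO pools, which chose the probes, 38 of 43 did not overlap. The shares there were 44.2% of the window probes and 24.2% of the unresponsive probes with a smaller range. All 4 probes were lowest in C1C2 and highest in C11C12, the pair held by 9 of the 43. Their treated folds ran from 0.95 ± 0.07 for Dapma7bEVm000522_97945 to that of Dapma7bEVm000027_96638.

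Dapma7bEVm003181_95993 belonged to the same pair of exposures, and its letters differed within C1C2. Its DMSO pools held 59.6 to 198 CPM in C1C2 (median 186) and 466 to 578 CPM in C11C12 (median 510). In treated pools C1C2 ran from 29.7 to 465 CPM (median 227) and C11C12 from 415 to 740 CPM (median 541), overlapping at their edges, with a fold of 1.46 ± 0.13 (log2, SE; adjusted p = 2.69e-21). Within C1C2 the mean was 75.2 ± 34.6 CPM (SD, n = 8) for letter A, 250 ± 55.1 CPM for B and 263 ± 85.9 CPM for C.

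Letters were compared for all probes by a test of letter nested within exposure on the same treated pools. It passed for 14 of 43 probes, against 37.4% of all probes tested, a share of 32.6% in the set. Dapma7bEVm003181_95993 had the lowest p of the set (adjusted p = 3.38e-20), followed by Dapma7bEVm000027_96638 (adjusted p = 1.42e-05). The median range over the 3 letter means ran from 0.26 (log2) in C7C8 to 0.40 in C9C10, and 0 of 43 probes reached 1 in C9C10 while 4 did in each of C3C4 and C11C12.

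Probes highest in C3C4 included a gene measured by 2 probes. Dapma7bEVm005949_95849 held 530 to 835 CPM in the C3C4 DMSO pools (median 657) and 108 to 247 CPM in those of C1C2 (median 209). Its treated pools held 437 to 838 CPM (median 697) and 135 to 439 CPM (median 247), overlapping at their edges, a fold of 1.34 ± 0.12 (log2, SE; adjusted p = 1.42e-20). The control QA libraries, at 170 to 259 CPM, were near the C1C2 pools.

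Dapma7bEVm010776_97514 held 534 to 966 CPM in the C3C4 DMSO pools and 87.2 to 344 CPM in those of C1C2, and its treated fold was 1.19 ± 0.16 (log2, SE; adjusted p = 2.81e-11). A second probe of that gene, Dapma7bEVm010776_96686, is not in the set because it did not meet the limits on response. Its DMSO means were 1874 ± 362 CPM in C3C4 and 568 ± 223 CPM in C1C2 (SD, n = 6), a log2 difference of 1.72 against 1.71 for the first probe. The 2 probes had an r of 0.98 over the 144 treated pools.

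Second probes did not follow in every gene. Dapma7bEVm009848_96104 and Dapma7bEVm009848_96046, both in the set, had an r of 0.87 over treated pools and treated folds of 1.03 ± 0.11 and 1.08 ± 0.11 between C7C8 and C9C10. Dapma7bEVm006666_96024 and Dapma7bEVm006666_97699, also both in the set, were both lowest in C1C2 but highest in C5C6 and C3C4, with an r of 0.61. Dapma7bEVm009581_96560 stood at 105 ± 6.80 CPM in C7C8 and 47.3 ± 9.75 CPM in C1C2 (SD, n = 6). The other probe of its gene, Dapma7bEVm009581_96599, stood at 1104 ± 122 and 856 ± 100 CPM, a log2 difference of 0.37, and the r over treated pools was -0.19. Dapma7bEVm002063_97559 averaged 1068 CPM in DMSO pools, and the other probe of its gene, Dapma7bEVm002063_97231, 0.04 CPM.

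Among the 10 probes of widest DMSO range, 2 had treated folds well below it. Dapma7bEVm002901_97216 held 116 to 209 CPM in the C7C8 DMSO pools and 5.66 to 53.1 CPM in those of C1C2. Its treated pools spread from 0 to 355 CPM in C1C2 (median 17.0) and from 15.6 to 409 CPM in C7C8 (median 125), and the fold of 1.19 ± 0.41 (log2, SE; adjusted p = 0.00586) was less than 0.5 of its DMSO range of 2.63. Without replicate A the fold was 0.80, which did not pass. Dapma7bEVm007157_96849, highest in C7C8 and lowest in C3C4, also fell short of its DMSO range of 2.26, with a treated fold of 1.31 ± 0.28 (adjusted p = 1.11e-05).

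Of the 7 probes highest in C5C6, 2 differed at least 2-fold in treated pools, against 25.6% of all probes tested, whatever their highest exposure. Dapma7bEVm006041_97791 held 47.5 to 108 CPM in the C5C6 DMSO pools and 18.1 to 41.7 CPM in those of C1C2, without overlap. The treated pools held 30.7 to 105 CPM and 24.2 to 69.2 CPM, which overlapped, and the fold was 0.78 ± 0.11 (log2, SE; adjusted p = 9.87e-11) against a DMSO range of 1.37. Dapma7bEVm006666_96024, with treated medians of 23.4 and 13.2 CPM, had a fold of 0.84 ± 0.19 against 1.54 in DMSO. Dapma7bEVm011480_97727, also highest in C5C6, went the other way, with a treated fold of 1.44 ± 0.11 against a DMSO range of 1.14.

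All 7 probes highest in C1C2 passed and differed at least 2-fold in treated pools. Over all exposures together 25.6% of all probes tested did, and no share by highest exposure is given here for all probes. Dapma7bEVm002040_96146 held 694 to 1124 CPM in the C1C2 DMSO pools and 158 to 676 CPM in those of C3C4. The treated pools had medians of 808 and 247 CPM and ranges that overlapped, with a fold of 1.40 ± 0.19 (log2, SE; adjusted p = 1.49e-11). Another probe of its gene, Dapma7bEVm002040_95860, is not in the set. That probe had DMSO means of 1020 CPM in C1C2 and 486 CPM in C3C4, a log2 difference of 1.07. Its r with Dapma7bEVm002040_96146 was 0.36 over the treated pools at D5 to D8. Dapma7bEVm023195_97745, the single probe lowest in C5C6, had treated medians of 36.4 CPM in C1C2 and 14.5 CPM in C5C6, a fold of 1.15 ± 0.12. Dapma7bEVm023704_97839 had treated medians of 39.8 CPM in C1C2 and 16.7 CPM in C11C12, and Dapma7bEVm025189_96713 16.0 CPM in C7C8 and 10.1 CPM in C11C12, folds of 1.22 ± 0.14 and 0.58 ± 0.17.

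The 3 probes that did not pass in treated pools had small differences in the DMSO direction. They were Dapma7bEVm010914_96672 (0.18 ± 0.16, adjusted p = 0.261), Dapma7bEVm004651_97599 (0.21 ± 0.17, adjusted p = 0.228) and Dapma7bEVm007554_97096 (0.27 ± 0.18, adjusted p = 0.148). Their DMSO ranges were 1.18, 1.11 and 1.06. These ranges rest on few counts, since their DMSO means were 19.8, 14.1 and 12.7 CPM and their median counts 12, 9 and 8 per library. Low counts alone did not mark the exceptions, as Dapma7bEVm025189_96713, with a median count of 7, passed. The 3 probes were named because they were the only exceptions.

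The spread inside an exposure was larger for these probes than for the unresponsive probes with a smaller range. The biological coefficient of variation in treated pools had a median of 0.248 over the 43 probes, 0.133 over those with a smaller range and 0.163 over all probes tested. The SD of log2(CPM + 2) within an exposure was 0.446 in DMSO pools and 0.474 in treated pools at the median. In the control QA libraries it was 0.228. The probes did not move as a single module. The median correlation between 2 of them over treated pools, centred within exposure, was 0.07. It was 0.06 among all window probes and 0.13 among the unresponsive probes with a smaller range. Pairs that reached 0.5 were more frequent in the set, 83 of 903. They were 30889 of 914628 among all window probes and 4574 of 93961 among the unresponsive probes with a smaller range. The 7 probes with C7C8 highest and C9C10 lowest had a median pairwise r of 0.49.

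The CON and XtraC pools together chose the probes, so their separate differences are a description that the rule largely fixed. The difference between the highest and lowest exposure was above 0 for all 43 probes in the CON pools and in the XtraC pools, with medians of 1.41 and 1.23 (log2), and at least 1 for 42 and 36 probes. Between CON and XtraC pools, with exposure in the model, edgeR's quasi-likelihood test called 0% of 1397 probes and 0 of 43 probes, and DESeq2 called 0 of the 43. At an unadjusted p under 0.05 there were 74 of all probes and 2 of the set, Dapma7bEVm005949_95849 (0.32 ± 0.10) and Dapma7bEVm010776_97514 (0.31 ± 0.13).

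The control QA libraries give the spread of libraries that the labels tie to no exposure. Between the 4 plates edgeR's quasi-likelihood test called 0% of 1333 probes and 0 of the 41 probes of the set that it tested; at an unadjusted p under 0.05 it gave 43 of all probes and 1 of the set, Dapma7bEVm001185_96644, and no other tool was run. The range over the 4 plate means had a median of 0.31 (log2) and a maximum of 0.75, and 0 of 43 reached 1. Its median was 0.24 over the window probes, of which 21 of 1353 reached 1. Over the unresponsive probes with a smaller range it was 0.22, and 2 of 434 reached 1. The SD over the 4 plate means was 0.137 at the median and that over the 6 treated exposure means 0.404, the latter being larger for 40 of 43 probes, for 1123 of 1353 window probes and for 317 of 434 unresponsive probes with a smaller range.

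Unresponsive described the set at the levels that chose it and not throughout the series. In the 9 chemicals that the rule did not use, 79.2% of the values of a probe at a level lay within 0.5 (log2) of the DMSO pools and 5.81% differed at least 2-fold, against 96.6% and 0.106% for the unresponsive probes with a smaller range. All window probes gave 90.0% and 2.58%. A 2-fold difference at some level of these 9 chemicals was found for 26 of the 43 probes, for 372 of 1353 window probes and for 29 of 434 unresponsive probes with a smaller range. The most such values were at D1 of 3,4-Dichlorophenyl isocyanate, with 5 probes higher and 5 lower. As many were at 0.067 µM of Metribuzin-DA, with 0 higher and 10 lower. At each of these levels 23.3% of the set thus differed at least 2-fold from the DMSO pools, against 8.80% and 7.24% of the window probes. Whether the chemical caused these differences was not tested. All values of this paragraph rest on the DMSO pools that chose the probes and are a description. They also rest on 3 pools a level, or 2 at D1 of 3,4-Dichlorophenyl isocyanate.

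Trends over the 8 levels were tested among treated pools alone, without any DMSO pool, per chemical with edgeR's quasi-likelihood test, and 9 combinations of probe and chemical passed. Of these, 5 were in 2-tert-Butyl-4-methoxyphenol, for which 28% of all probes tested passed, and 2 in 3,4-Dichlorophenyl isocyanate, for which 5.33% did. Fipronil amide (6.85% of all probes) and cis-Nonachlordane (8.42%) each had 1, and 4-Chlorophenyl methyl sulfoxide (0.211%) and Fexofenadine (0.218%) had 0. Metolachlor OA, 1(2H)-Phthalazinone, Gabapentin, Metribuzin-DA, Hydrochlorothiazide and Cetirizine called 0% of all probes. At an unadjusted p under 0.05 these 6 gave 2, 3, 4, 2, 0 and 1 of the 41 to 43 probes of the set tested. Over all probes they gave 80, 89, 58, 169, 44 and 120, of 1370 to 1478 tested. Likewise 4-Chlorophenyl methyl sulfoxide gave 5 of 43 in the set and 176 of 1423 over all probes. Fexofenadine gave 10 of 42 and 124 of 1379. DESeq2 called 0 of the set in all 8. The number 9 became 2 without replicate B and 1 without replicate C. Calls over all probes without a letter are given below for the chemicals with calls in the set.

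The clearest trend was that of Dapma7bEVm000027_96638 with Fipronil amide, which forms when the insecticide fipronil degrades. Its pools held 69.2, 89.6 and 95.7 CPM at 0.0179 µM, 119, 120 and 122 CPM at 0.56 µM, and 138, 143 and 154 CPM at 5.65 µM. They held 120, 191 and 212 CPM at 17.9 µM and 136, 167 and 171 CPM at 56.43 µM, and the 6 DMSO pools 96.5 to 139 CPM (median 117). The pools of the 3 highest levels were thus all above those of the lowest, and the slope was 0.14 ± 0.02 per level step toward higher concentration (log2, SE; adjusted p = 6.63e-05). The rule limited the level at 56.43 µM, so the slope is a description. Without any 1 of the letters, 1 probe of the set still passed with this chemical. Over all probes 12, 12 and 98 passed without A, B and C, against 95 in all pools.

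Both fitted slopes of 3,4-Dichlorophenyl isocyanate were positive, in a chemical the rule did not use. Dapma7bEVm002980_96780 held 85.5, 114 and 160 CPM at D8, 142, 143 and 143 CPM at D6 and 239, 245 and 257 CPM at D3. Its D1 pools held 149 and 252 CPM and its D2 pools 25.4, 169 and 177 CPM. The slope was 0.13 ± 0.03 per step (log2, SE; adjusted p = 0.0131), against DMSO pools at 87.2 to 133 CPM. Dapma7bEVm006041_97791 held 24.2, 26.2 and 39.9 CPM at D8 and 57.0 and 88.8 CPM at D1. Its means between were 49.4 CPM at D5, 44.1 CPM at D4, 37.1 CPM at D3 and 43.8 CPM at D2, with a D2 pool at 16.9 CPM, so the levels did not rise in order, and it had a slope of 0.12 ± 0.04 (adjusted p = 0.0436). C1C2 was the exposure where both probes were lowest in DMSO. Without replicate B or without replicate C, 0 probes of the set passed in this chemical, and without replicate A 6 did. Over all probes 1, 40 and 104 passed in these 3 cases, against 77 in all pools. Without the D2 library in which few probes held most counts, 4 of the set and 91 of all probes did.

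In 2-tert-Butyl-4-methoxyphenol, 4 of the 5 trends fell with concentration. Dapma7bEVm009581_96560 held 148, 188 and 223 CPM at 0.212 µM and 84.4, 84.9 and 90.8 CPM at 66.67 µM, with DMSO pools between at 89.8 to 129 CPM, and its slope was -0.14 ± 0.04 per step (log2, SE; adjusted p = 0.00865). Dapma7bEVm002869_97584 (-0.09 ± 0.03), Dapma7bEVm006185_96449 (-0.11 ± 0.04) and Dapma7bEVm002980_96780 (-0.06 ± 0.02) also fell, and Dapma7bEVm011017_97709 rose (0.08 ± 0.03). In the first 3 the highest mean was at 0.212 µM, above the DMSO pools, and the mean at 66.67 µM, which the rule held within 0.5 of DMSO, was the lowest of the 8. The single trend of cis-Nonachlordane was that of Dapma7bEVm003181_95993 (-0.05 ± 0.01), again with levels that the rule limited. Without replicate B or without replicate C, 0 probes of the set passed in 2-tert-Butyl-4-methoxyphenol. Over all probes 74 and 64 passed there, against 411 in all pools. In cis-Nonachlordane 0 of the set passed without replicate A or C. Over all probes 54 and 43 did, against 119 in all pools.

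All 8 levels against DMSO, which reuses the DMSO pools that chose the probes and is a description, gave 10 combinations past the threshold. They were 2 in 3,4-Dichlorophenyl isocyanate (5.02% of all probes tested), 2 in Metribuzin-DA (4.64%), 5 in 2-tert-Butyl-4-methoxyphenol (46.2%) and 1 in Fipronil amide (7.19%). Those of 2-tert-Butyl-4-methoxyphenol were Dapma7bEVm009581_96560, Dapma7bEVm002869_97584, Dapma7bEVm006185_96449, Dapma7bEVm002070_96194 and Dapma7bEVm002040_96146. None passed in 1(2H)-Phthalazinone (0.208%), Gabapentin (0.556%), 4-Chlorophenyl methyl sulfoxide (0.07%), Fexofenadine (0.216%) or cis-Nonachlordane (12.1%), where 8, 4, 5, 4 and 3 of the set had an unadjusted p under 0.05 and DESeq2 called 2, 0, 0, 0 and 1. Over all probes tested in these 5 chemicals, 140, 139, 159, 102 and 379 had an unadjusted p under 0.05, and DESeq2 called 37, 24, 27, 6 and 238. Metolachlor OA, Hydrochlorothiazide and Cetirizine called 0% of all probes with edgeR, and DESeq2 called 0 of the set. There 0, 0 and 3 of the set had an unadjusted p under 0.05, and 91, 56 and 117 of all probes. The number 10 became 4 without replicate B and 2 without replicate C. Over all probes the calls in 2-tert-Butyl-4-methoxyphenol went from 680 to 318 and 359.

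In Metribuzin-DA the 2 probes were Dapma7bEVm001185_96644 and Dapma7bEVm002040_96146, and neither followed concentration. Without replicate B or without replicate C, 0 of the set passed in this chemical and 1 and 2 of all probes, against 69 in all pools. Without replicate A, 1 of the set and 119 of all probes passed. With DESeq2, 10 of the set and 261 of all probes did. Dapma7bEVm001185_96644, one of the 5 probes with low pools, held 43.3 to 225 CPM in the 6 DMSO pools. It held 139, 279 and 287 CPM at 6.677 µM, but 8.95, 28.4 and 41.5 CPM at 2.113 µM and 9.12, 14.4 and 36.7 CPM at 0.067 µM (adjusted p = 0.0311 over the 8 levels). Dapma7bEVm002040_96146 stood at 572 ± 119 CPM (SD, n = 3) at 6.677 µM, at 110 ± 46.5 CPM at 2.113 µM and at 126 ± 39.0 CPM at 0.067 µM, against 421 ± 102 CPM (SD, n = 6) in DMSO (adjusted p = 0.0290). In the same exposure it stood at 128 ± 18.8 CPM at 0.067 µM of 2-tert-Butyl-4-methoxyphenol and at 420 ± 33.4 CPM at 0.021 µM. For both probes the 3 pools at 6.677 µM of Metribuzin-DA did not overlap the 3 at 2.113 µM, the next lower concentration.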

How the data were processed

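For 335 libraries, the authors deposited raw counts by probe in 1 table of whole numbers, which per the file headers and values carry no scaling. The submitters' processing notes name bcl2fastq (no version given); the assignment of reads to probes is not given in the sources used here. Further tables that the authors deposited hold log2 values, and those checked equal log2(count + 1). The table of 3,4-Dichlorophenyl isocyanate mixes log2 values with counts and was not used. All tests ran on the counts. Columns were matched to samples by name, and 0 stayed unmatched.

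CPM were computed from column totals (118094 to 1171681 counts) with 2 added before log2. Probes were tested with edgeR 4.0.16 (R 4.3.3), TMM scaling, filterByExpr, the quasi-likelihood test and Benjamini-Hochberg adjustment over all probes tested at 0.05; DESeq2 1.42.0 was the alternative. Descriptions used Python 3.11.15, numpy 2.4.6, pandas 2.3.3 and scipy 1.17.1. The scripts were tested on simulated counts. Each probe's contrast between exposures was fixed by its DMSO pools.

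The set, lists and tests were chosen with earlier results of these data known. Probes named are the 10 of largest DMSO range, 2 per highest and lowest exposure, 2 on each side of the range limit, those called for a trend (up to 5 per chemical), and up to 6 with a second probe of the gene; others are named as exceptions or after their values were seen. Animals were pooled by plate, with 3 plates per exposure, per the labels; reading the letters A to C as plates is an inference. Same-letter pools correlated by 0.0159 to 0.261 on average per chemical and other-letter pools by -0.164 to -0.056, which centring on group means makes negative. Every chemical held negative same-letter pairs, and the letter was used as an alternative and not as a block. The mean same-letter correlation was still above 0 in every chemical, and the letter test passed for 37.4% of all probes. The p-values between exposures treat pools of a letter as independent. There the replicate block fitted a letter effect shared by all exposures, not letters within an exposure. Counts summed over each exposure and letter called 39 of 43 probes and 68.0% of all probes tested.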

Additional observations from a re-analysis of the deposited data

Results flagged for a closer look

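Among the 10 probes of largest range, the 6 DMSO pools of the highest and of the lowest exposure were looked at for a single pool far from the others, 20 groups in all, of which 2 held one; chance gives about 1 in 20 groups. Dapma7bEVm000027_96638 stood at 86.8 CPM in CON replicate B of C1C2, with the next pool at 62.3 CPM, a gap of 0.739 of the whole range. Dapma7bEVm028499_97764 stood at 19.1 CPM in CON replicate B of C9C10, with the next pool at 6.55 CPM, a gap of 0.717 of the range.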

How the results depend on the processing

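Of 43 probes, or 42 tested at levels D7 and D8 alone, 38 to 40 passed between exposures in treated pools under every alternative run. These included DESeq2, no filter, summed counts, levels D7 and D8 alone and, chosen after seeing the data, leaving out 3 libraries of low total. With the replicate block the count was 40. Over all probes tested, 64.2% (no filter) to 84.8% (replicate block) passed under the same alternatives. The membership moved more: TMM-scaled CPM gave 33 probes, of which 24 are among the 43, CON pools alone 44 (26 shared), XtraC pools alone 36 (19 shared), and leaving out a letter 31 to 46 (16 to 24 shared). For trends, 9 calls became 5 without a filter, 18 with DESeq2, and 1 to 10 when a letter was left out, and were 10 with the replicate block. Over all levels against DMSO, 10 calls became 25 with DESeq2, 17 with the replicate block, and 2 to 10 when a letter was left out. With DESeq2 calls rose over all probes too. Trend calls went from 77 to 240 in 3,4-Dichlorophenyl isocyanate and from 411 to 486 in 2-tert-Butyl-4-methoxyphenol. Calls against DMSO went from 69 to 261 in Metribuzin-DA and from 680 to 717 in 2-tert-Butyl-4-methoxyphenol. Without replicate C of 3,4-Dichlorophenyl isocyanate at D2, an alternative chosen after seeing the data, the trend and DMSO calls of the set were 11 and 12. Letter calls fell from 14 to 6 (over all probes from 551 to 344) with levels D7 and D8 alone (12 pools per exposure in place of 24). CON against XtraC and the QA plates gave 0 throughout. For single probes, 424 alternative values kept their side and direction, 4 no longer passed and 1 reversed: Dapma7bEVm010914_96672, whose values ran from -0.077 to 0.34 when a letter was left out. The cause of these changes was not tested. Low counts limit the weakest probes, whose median count per library was as low as 6.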
